A study of Mus musculus with 3 samples.

Results

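Ribosomal RNAs, a U1 spliceosomal RNA and the nuclear-retained RNAs Malat1 and Neat1 were examined in the soleus muscle of mice without Mettl21c and of wild-type mice. They are 5 of the 36638 genes or transcripts named on the array, chosen by their RefSeq accessions with the ratios of this same comparison already known, so their ratios are a description and carry no test. Matching accessions without version gave 6 of the 55681 non-control probes. NR_003278, Rnu1b6 (NR_004413), Malat1 (NR_002847) and Neat1 (NR_003513) have 1 probe each, and NR_046233 has 2. The RefSeq table used here holds no entry for NR_003278 and NR_046233. From general knowledge these accessions are the mature small-subunit ribosomal RNA and the long ribosomal precursor transcript.

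The study compared male C57BL/6 mice aged 8 weeks that carry 2 LacZ alleles of Mettl21c (Mettl21cLacZ/LacZ, called KO) with wild-type mice (WT). Total RNA came from whole SOL muscle, read here as soleus, so fewer cells of a type and less RNA per cell cannot be told apart. Each of the 3 arrays held 1 WT sample in Cy3 (green) and 1 KO sample in Cy5 (red), labelled as biological replicates, and the dyes were never exchanged. A preference of a probe for a dye and the genotype therefore cannot be told apart. Levels of different probes are not compared.

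Ribosomal RNA is made by RNA polymerase I as a long precursor that is cut and modified in the nucleolus into the mature RNAs of the ribosome. U1 RNA forms, with its proteins, the particle that recognises the start of an intron. Malat1 lies in nuclear speckles, which hold splicing factors, and Neat1 is the scaffold of paraspeckles, bodies that hold RNA-binding proteins and certain RNAs. Mature ribosomal and U1 RNAs carry no poly(A) tail, while kits of the kind named in the labels start labelling at such tails. How these probes came to their signal was not tested.

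Before the 5 RNAs, the targeted gene and the tissue were checked. The processed signal of Mettl21c, which is background-subtracted and dye-normalised by the scanner software and carries no offset, ran from 3677 to 7527 in WT and from 32.3 to 200.4 in KO, where it was well above background on array 1 alone. Of 8391 probes tested between KO and WT 1 passed an adjusted p of 0.05 in limma (0.0119%), and it was that of Mettl21c, with a mean log2 ratio of KO over WT of -2.45 (SD 0.48 over 3 arrays) and a limma adjusted p of 0.0289. The offset of 50 limits the size of this ratio, since KO was near background on arrays 2 and 3, and the processed signals gave a mean of -6.23. At an unadjusted p under 0.05 there were 1143 probes. The call was lost without array 3 and with the processed signals, where limma called 0 probes (1488 and 937 at an unadjusted p under 0.05). None of the 5 tested probes of the RNAs described here was called, from which nothing is read, since this comparison chose them. Of 12 soleus markers 9 were well above background in both channels of all arrays. The summed processed signal of soleus markers ran from 366240 to 483115 in WT and from 404412 to 431086 in KO. Of the 9 tested, 8 had a positive mean log2 ratio after loess. Their median was 0.20, and 0.06 with the processed signals. The other, Atp2a2, was lower in KO on each array, with a mean of -1.14 (SD 0.41, limma adjusted p = 0.0824) after loess. The summed signal of red blood cell markers (3 of 6 probed markers well above background throughout) ran from 32842 to 53916 in WT and from 77787 to 129821 in KO. Much of it came from probes that were not tested. In KO on array 3 the brightest tested probes of Hba-a1, Hbb-b1 and Alas2 had 23655, 648 and 520. The summed signal of macrophage and leukocyte markers (6 of 10) ran from 7778 to 15768 in WT and from 7021 to 10864 in KO. That of adipocyte markers (5 of 7) ran from 4964 to 7713 in WT and from 7895 to 8732 in KO. On every array the summed signals of blood and adipocyte markers were higher and those of macrophage markers lower in KO. Of these sums those of macrophage markers overlapped between the groups, as did those of soleus markers. Single markers did not all follow their sum, as with Hbb-b1 of blood, at 536 in WT and 441 in KO on array 2. The median log2 ratio of the tested markers after loess was 0.04, -0.15 and 0.39 on arrays 1 to 3 for adipocytes. For macrophages it was -0.31, -0.27 and 0.04, and for blood 0.38, 0.06 and 0.30. The order of KO and WT changed with the array for endothelial (2 of 7) and fibroblast markers (3 of 7). Of the listed markers 3 of macrophages, 2 of adipocytes, 2 of fibroblasts and 1 of endothelial cells were well above background in no channel. The part of these cells in the results below was not tested.

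NR_003278, the small-subunit ribosomal RNA, was lower in KO than in WT on each of the 3 arrays. It differed more between samples of 1 genotype than between the genotypes. Animals cannot be told apart from arrays in this spread, since each sample of a genotype lay on its own array. The processed signals of NR_003278 in WT were 2076, 22455 and 3874 on arrays 1 to 3. In KO they were 1534, 5764 and 858. Array 2 was the highest in both genotypes, and the groups overlapped, since KO on array 2 lay above WT on arrays 1 and 3. The KO signal was 73.9%, 25.7% and 22.1% of that of the WT sample on the same array. As log2 ratios of the processed signals these are -0.44, -1.96 and -2.18, with a mean of -1.52 (SD 0.95, n = 3). The scanner's own error of these log2 ratios was 0.21, 0.27 and 0.29. After normexp background correction with an offset of 50 and loess, the ratios were -0.37, -1.59 and -1.37, with a mean of -1.11 (SD 0.65).

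The spread of NR_003278 between samples was large against other probes. After loess and scaling between arrays the WT samples spanned 3.18 log2 units and the KO samples 2.82, against medians of 0.29 and 0.29 over the tested probes. Only 0.632% of the tested probes spanned as much in WT and 0.930% in KO. Its only spot lies near a corner of the array, in row 381 of 384 and column 156 of 164. The 68 tested probes with spots within 12 rows and columns had a median ratio of 0.02, 0.02 and 0.08 on arrays 1 to 3 after loess, and of 0.06, -0.07 and -0.12 with the processed signals. They were higher on array 2 than their own mean, by 0.25 log2 units in WT and 0.20 in KO, where NR_003278 itself stood 2.08 and 1.59 above its mean.

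**Figure D1:**
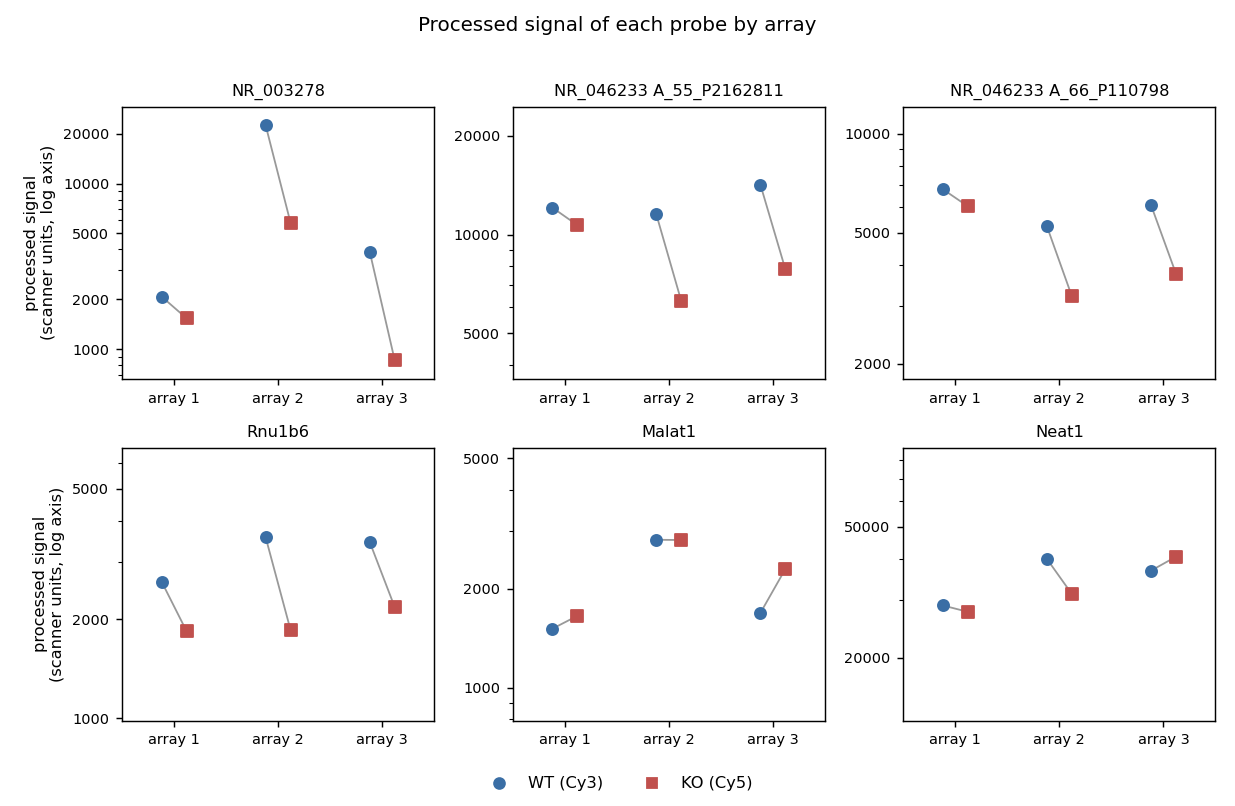
Processed signal (scanner units, log axis) of each of the 6 probes on arrays 1 to 3, with WT as blue circles, KO as red squares and a grey line joining the samples of 1 array. NR_003278 runs from 858 to 22455, KO lies below WT on every array for it, for NR_046233 and for Rnu1b6, and Malat1 and Neat1 have KO above WT on 1 or more arrays.

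Both probes of NR_046233, the precursor transcript from which the mature ribosomal RNAs are cut, were lower in KO on each array. Probe sequences were not used, so these probes may read mature ribosomal RNA as well as the precursor. At the brighter probe (A_55_P2162811) WT stood at 12085, 11524 and 14200 in processed signal and KO at 10689, 6272 and 7846. All KO samples lay below all WT samples, which were close to each other, with a highest over lowest of 1.23 in WT and 1.70 in KO. How many of all tested probes separate like this was not counted, so nothing is read from it. Its KO signal was 88.4%, 54.4% and 55.3% of WT, a mean log2 ratio of -0.64 (SD 0.40, n = 3), and -0.60 (SD 0.37) after loess. At the other probe (A_66_P110798) WT stood at 6787, 5232 and 6078 and KO at 6022, 3203 and 3755. Here the groups overlapped, as KO on array 1 lay above WT on array 2. The KO signal was 88.7%, 61.2% and 61.8% of WT, a mean log2 ratio of -0.52 (SD 0.31). This spot had an outlier flag on array 3, so after loess it has values on arrays 1 and 2 only, -0.34 and -0.67, and it was left out of the tests. The processed values given for array 3 are those of the flagged spot. Without them the processed mean was -0.44 (SD 0.38, n = 2).

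With the processed signals the probes of NR_046233 thus gave much the same order by array, with array 1 near no difference and arrays 2 and 3 lower. After loess array 1 stood at -0.17 at the brighter probe and at -0.34 at the other. On array 1 the processed log2 ratios of -0.18 and -0.17 were smaller than the scanner's error of 0.20 at each probe. On arrays 2 and 3 they lay between -0.88 and -0.69, and the scanner's error lay between 0.214 and 0.225. Among these the array 3 value of A_66_P110798 is from the flagged spot. NR_003278 also had its smallest ratio on array 1.

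The array holds 1 further ribosomal RNA of the list, Rn28s1, a large-subunit ribosomal RNA. Its processed signals were 9396, 16124 and 19090 in WT and 9872, 13066 and 15579 in KO. The groups overlapped, and KO was slightly above WT on array 1 and below it on arrays 2 and 3. The log2 ratios were 0.07, -0.30 and -0.29, with a mean of -0.18 (SD 0.21), and -0.08 (SD 0.14, limma adjusted p = 0.718) after loess. So the probes of ribosomal RNAs had means between -1.52 and -0.18 on the processed scale, all with the smallest difference on array 1. This order is not particular to them. Of the RNAs described below, Rnu1b6, Rnu2-10 and Neat1 also had their smallest processed difference on array 1, while Malat1 and Rnu12 did not.

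**Figure D2:**
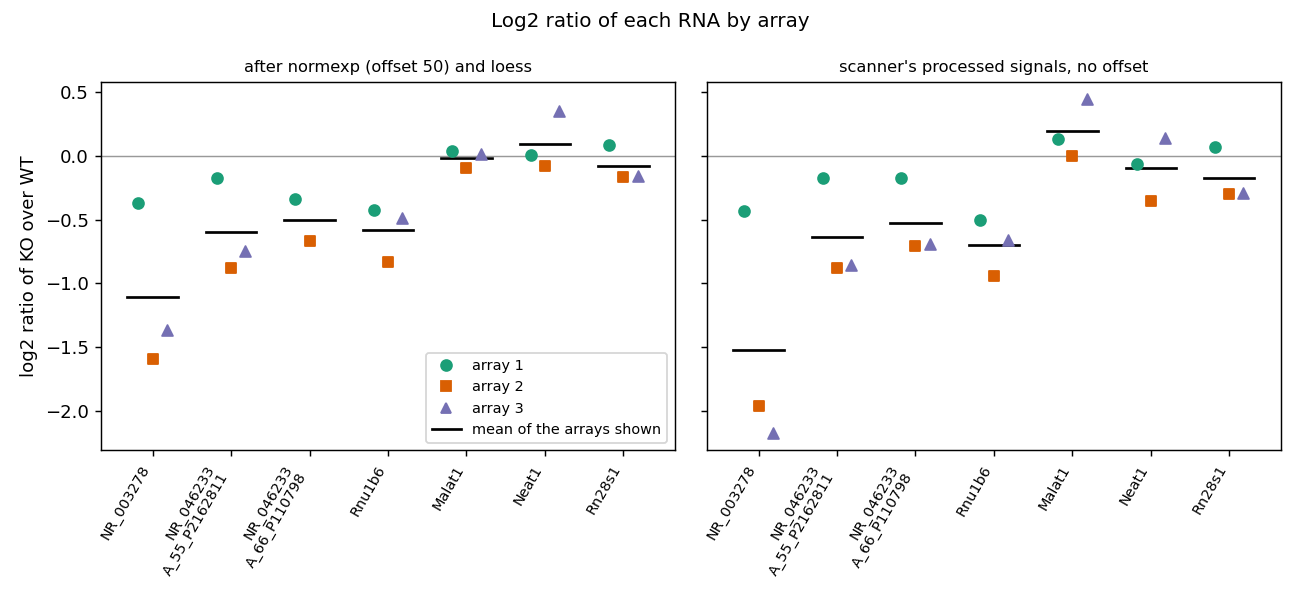
Log2 ratio of KO over WT on arrays 1 to 3 (circle, square, triangle) for the 6 probes and Rn28s1, after normexp with an offset of 50 and loess (left) and from the processed signals (right), with a bar at the mean of the arrays shown. NR_003278, NR_046233 and Rnu1b6 lie below 0 on every array shown, while Malat1, Neat1 and Rn28s1 have ratios on both sides of 0.

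Rnu1b6, a U1 RNA gene, was lower in KO on each array with the least spread of the lower RNAs. Its processed signals were 2607, 3556 and 3442 in WT and 1842, 1853 and 2181 in KO, so the groups did not overlap. Nothing is read from this, since the share of all tested probes without overlap was not counted. The KO signals had a highest over lowest of 1.18. KO was 70.7%, 52.1% and 63.4% of WT, a mean log2 ratio of -0.70 (SD 0.22, n = 3), and -0.58 (SD 0.22) after loess. U1 RNA comes from several near-identical genes, so the probe may read more than Rnu1b6 and its gene of origin is uncertain. Of the other small nuclear and structured RNAs 5 of 34 listed have a probe and 2 were tested. Rnu2-10, the U2 RNA of the same splicing machinery, had processed signals of 474, 1085 and 223 in WT and 450, 264 and 148 in KO. Its mean log2 ratio was -0.90 (SD 1.02) with these signals and -0.23 (SD 0.42, limma adjusted p = 0.567) after loess. Rnu12, of the minor spliceosome, had 666, 836 and 672 in WT and 752, 881 and 2443 in KO. Its mean was 0.70 (SD 1.00) with these signals and 0.09 (SD 0.11, limma adjusted p = 0.661) after loess. None passed the test in either direction, and 0 had an unadjusted p under 0.05. The ratios of Rnu2-10 differed between arrays by more than those of Rnu1b6.

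Malat1 and Neat1, the nuclear-retained RNAs, showed no direction shared by all arrays. The processed signals of Malat1 were 1510, 2818 and 1686 in WT and 1652, 2814 and 2295 in KO. KO was 109% and 99.8% of WT on arrays 1 and 2 and 136% on array 3, and the groups overlapped. The mean log2 ratio was 0.19 (SD 0.23, n = 3) with the processed signals and -0.02 (SD 0.07) after loess. On array 3, where Malat1 stood at 0.44 with the processed signals and at 0.01 after loess, the 74 tested probes with spots nearby had medians of 0.37 and 0.04. Malat1 was highest on array 2 in both genotypes, as NR_003278 was, and its WT samples spanned 0.47 log2 units after scaling.

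Neat1 was bright, with processed signals of 28838, 39954 and 36806 in WT and 27577, 31236 and 40581 in KO. KO was 95.6%, 78.2% and 110% of WT, and the groups overlapped. The mean log2 ratio was -0.09 (SD 0.25, n = 3) with the processed signals and 0.09 (SD 0.23) after loess, which is on the other side of 0. A trend with brightness was left after loess. The 89 tested probes within 0.25 log2 units of the brightness of Neat1 had a median ratio of 0.22 after loess and of 0.02 with the processed signals. When loess was fitted only on spots well above background, a setting added after seeing the data, that median was 0.02, Neat1 stood at -0.11 and Malat1 at 0.04. Probes as bright as the other RNAs had medians between -0.06 and 0.01 after loess, and in that setting NR_003278 stood at -1.12, NR_046233 at -0.63 and -0.47, and Rnu1b6 at -0.52.

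**Figure D3:**
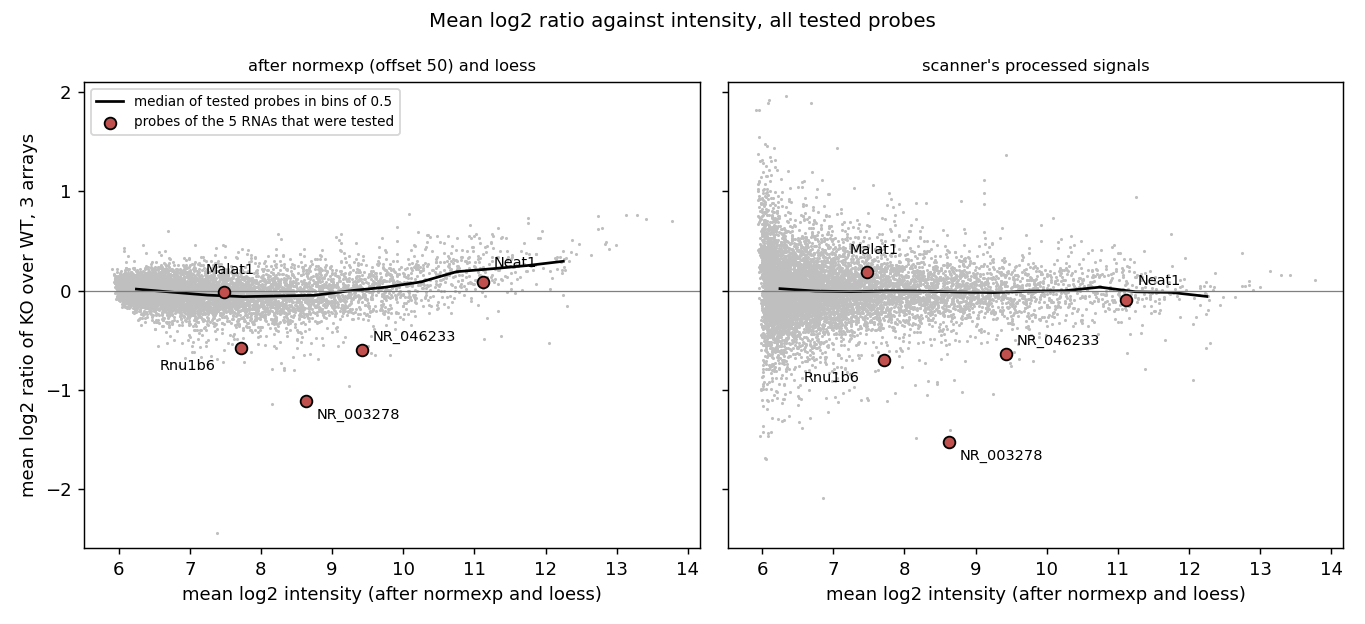
Mean log2 ratio of KO over WT of the 8391 tested probes (grey) against their mean log2 intensity, after normexp with an offset of 50 and loess (left) and from the processed signals (right, where 2 probes lie outside the axis), with the black line at the median in bins of 0.5 and the tested probes of the 5 RNAs in red. The line rises above 10 on the left and stays near 0 on the right, and Neat1 lies near it in both panels while NR_003278, NR_046233 and Rnu1b6 lie below it.

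Other long noncoding RNAs, listed as nuclear without a check of where in the cell each lies, had ratios on both sides of 0. Of 20 listed 16 have a probe and 6 were tested, 3 positive and 3 negative, with a median log2 ratio after loess of 0.0038, beside -0.0033 over all tested probes. None passed, and 0 had an unadjusted p under 0.05 in limma. Of the brightest, Meg3, an imprinted noncoding RNA, stood at 0.08 (SD 0.06) and Mirg, from the same imprinted locus, at -0.05 (SD 0.09). With the processed signals Mirg had a mean of 0.34 (SD 0.37), on the other side of 0, and Meg3 one of 0.03. On array 3 Mirg had processed signals of 9564 in WT and 15350 in KO, against 424 to 551 on arrays 1 and 2. Its log2 ratio on array 3 was 0.68 with these signals and -0.15 after loess. Peg13, also imprinted, stood at 0.30 (SD 0.61), with 1.00 on array 3, where the processed signals gave 0.11. The lowest of the list was Norad, a noncoding RNA induced by DNA damage, which is named after its values were seen. Its processed signals were 1339, 1311 and 1964 in WT and 1529, 704 and 1107 in KO, so that KO was above WT on array 1 and below it on arrays 2 and 3. Its mean log2 ratio was -0.27 (SD 0.35, limma adjusted p = 0.426) after loess and -0.51 (SD 0.61) with the processed signals, and its 3 other probes were not tested. The list of genes that host small nucleolar RNAs, which guide the modification of ribosomal RNA, had 5 of 22 tested and a median of 0.02, with 0 passing and 0 at an unadjusted p under 0.05. Its brightest were Rack1, at 0.08, Snhg18, at -0.07, and Snhg3, at -0.0081.

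After loess the proteins that make ribosomal RNA gave medians near that of all probes. With the processed signals the medians were -0.098 for RNA polymerase I and its factors and 0.024 for pre-rRNA processing factors. Of RNA polymerase I and its factors 11 of 23 were tested, with a median of 4.9e-04, and none passed (2 at an unadjusted p under 0.05 in limma, both positive). The brightest were Polr2k, a subunit shared by the RNA polymerases, at 0.04 (SD 0.21), Polr1d at -0.11 (SD 0.21) and Polr1a, the largest subunit, at -0.02 (SD 0.24). Of pre-rRNA processing factors 29 of 50 were tested, 14 positive and 15 negative, with a median of -0.0036, and none passed (5 at an unadjusted p under 0.05). Among the brightest, Ncl, the nucleolar protein nucleolin, stood at -0.48 (SD 0.42, limma adjusted p = 0.254), the lowest of the list, with -0.48, -0.06 and -0.90 on arrays 1 to 3. Its processed log2 ratio was -0.71. Exosc2, of the RNA exosome, stood at 0.22 (SD 0.21) and Npm1, nucleophosmin, at 0.14 (SD 0.22).

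The U1 and Sm core proteins, which bind U1 RNA and the other small nuclear RNAs or help to load them, were mostly positive, where Rnu1b6 was negative. Of 28 listed 17 were tested, of which 16 were positive, with a median of 0.11 beside -0.0033 over all tested probes, and with 0.17 from the processed signals. Of all tested probes 4086 of 8391 were positive. By array, the median over the 17 genes was 0.02, 0.11 and 0.19. Without array 3 the list's median was 0.03 (21 genes tested), and with no filter on dim probes it was 0.04 (28 genes). Centred on the median of all spots without loess it was -0.31, where all tested probes had a median of -0.44. None passed in either direction, and 3 had an unadjusted p under 0.05 in limma. Snrpd2, a Sm core protein, stood at 0.17 (SD 0.08, limma adjusted p = 0.364), Snrpg, another, at 0.20 (SD 0.40) and Snrnp70, the U1-specific protein, at 0.14 (SD 0.32).

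Proteins of the nuclear bodies in which Neat1 and Malat1 lie gave small medians of either sign. Of 25 paraspeckle proteins 13 were tested, 4 positive and 9 negative, with a median of -0.06 after loess and of 0.08 with the processed signals, and none passed (2 at an unadjusted p under 0.05 in limma). Hnrnph1 stood at -0.08 (SD 0.02) and Tardbp at -0.03 (SD 0.05). Both RNA-binding proteins had positive means with the processed signals, of 0.09 and 0.02. Of 28 nuclear speckle proteins 18 were tested, 6 positive and 12 negative, with a median of -0.04, and none passed (3 at an unadjusted p under 0.05). Ddx39b, an RNA helicase of splicing and export, stood at 0.23 (SD 0.18), Srrm1, a splicing coactivator, at 0.02 (SD 0.14) and Sf3a2, of the U2 particle, at -0.16 (SD 0.11).

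**Figure D4:**
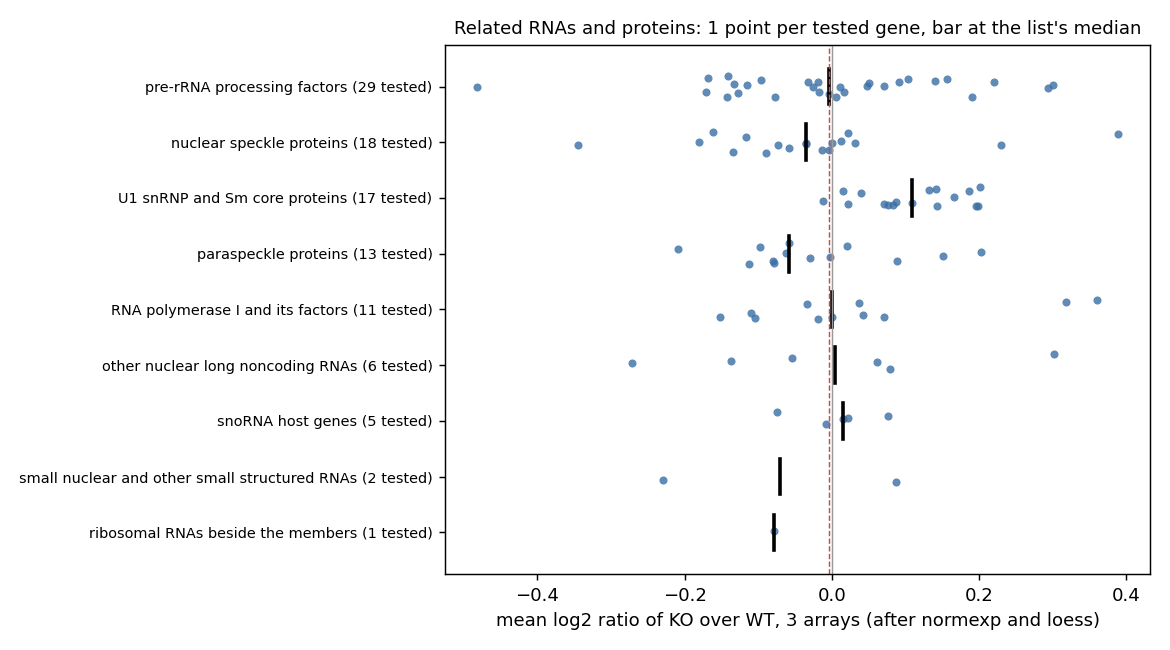
Mean log2 ratio of KO over WT after normexp and loess, 1 point per tested gene, for 9 lists of related RNAs and proteins, with a black bar at each list's median and a dashed line at the median of all tested probes. The U1 and Sm core proteins have 16 of 17 points above 0 and a median of 0.11, and the other lists spread to both sides of 0 or hold 1 gene.

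For the brightest probe of each RNA the 3 tested probes of other transcripts with the most similar pattern were found by Pearson's r over the 6 channels, which share arrays in pairs. NR_003278 was most like a transcript named only by its genomic region (r = 0.997), Grk6 (0.989) and Gm5069 (0.986). NR_046233 was most like Neb (0.990), which encodes the giant sarcomere protein nebulin, Plpp1 (0.986) and Poldip2 (0.985), with mean log2 ratios of -0.52, -0.19 and -0.33. Rnu1b6 was most like a transcript named by its region (0.988), Qrsl1 (0.981) and Immt (0.977), which encodes a protein of the inner mitochondrial membrane. Malat1 was most like the probe listed as NAP094517-001 (0.997), Cox20 (0.994) and Zfp976 (0.994), and Neat1 was most like E2f6 (0.995), Anxa4 (0.992) and Akap13 (0.991). With 6 points many probes reach a high r, namely 118, 109, 68, 220 and 368 of the tested probes at 0.9 or more for NR_003278, NR_046233, Rnu1b6, Malat1 and Neat1.

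The choice of processing moved the lower RNAs in size and the nuclear-retained RNAs in sign. Over 14 other settings the mean log2 ratio of NR_003278 ran from -1.89 to -0.87 and that of Rnu1b6 from -1.22 to -0.45. That of NR_046233 ran from -1.47 to -0.46 at the brighter probe and from -1.34 to -0.34 at the other, where -0.34 is the value of array 1 alone. Scaling between arrays and the settings that changed only the filter on dim probes cannot alter these ratios, and they gave the same values. Malat1 ran from -0.62 to 0.19, on the other side of 0 in 5 settings, and Neat1 from -0.99 to 0.18, on the other side in 7. The lowest value of each came from centring arrays on the median of all spots without loess, where the tested probes as a whole had a median of -0.44.

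**Figure D5:**
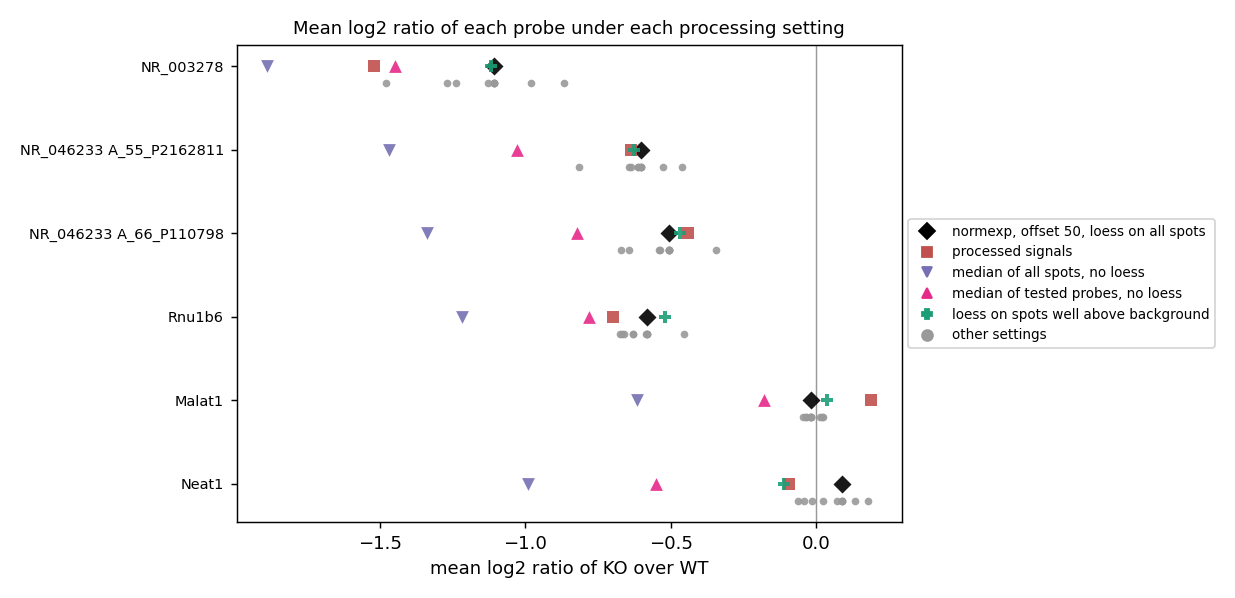
Mean log2 ratio of KO over WT of each of the 6 probes under each processing setting, with the setting used in the text as a black diamond, 4 others marked by colour and shape, and the rest as grey dots. NR_003278, NR_046233 and Rnu1b6 stay below 0 under each setting shown, and Malat1 and Neat1 lie on both sides of 0.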

How the data were processed

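Each deposited scanner file holds the median intensity of every spot and of its local background in both channels, quality flags and processed intensities, written by Agilent's Feature Extraction software, version 12.0.3.1 per the file headers (11.5 per the submitters' processing notes). The deposited log10 ratio is that of processed KO over WT, and the deposited series matrix repeats it within 5e-10 on arrays 1 and 2 and 0.0050 on array 3, with column medians of 0, 0 and 0. All arrays lay on 1 slide. Other deposited values used are flags of spots, such as the outlier flag.

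Median intensities were corrected with normexp (offset 50, over all spots) and fitted with loess within each array in limma 3.58.1 and R 4.3.3, where outlier-flagged and control spots had weight 0. Ratios of dim probes are drawn towards 0 by this offset, as median backgrounds were 32 to 36 in WT and 17 in KO. Spots of a probe were averaged. Testing needed values from all 3 arrays and a signal well above background throughout in WT or in KO, and 8391 of 55681 probes met this. The mean log2 ratio was tested against 0 with eBayes and Benjamini-Hochberg adjustment over these probes. Between 20.4% and 23.6% of non-control spots were well above background, and precision is limited by having 3 arrays.

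Of 29472 probes with a RefSeq accession 28664 matched the RefSeq entries of assembly GRCm38.p6, which gave names only. Probes named only by a genomic region were not assigned to Malat1 or Neat1, since no build is given. Probe sequences were not used here. The 5 RNAs, the 9 lists of related genes, the 6 lists of cell type markers and the tests were chosen with earlier results of these data known. The rule for named genes took all probes of the 5 RNAs, Mettl21c, the 3 brightest tested genes of each list and any gene of a list past the threshold, and the 3 most similar probes for each RNA. A gene of a list stands by its brightest tested probe. The values of 1 gene that this rule names are not reported here. Comparisons with probes of like brightness or position were added after seeing the data, as was loess on spots well above background. Steps were tested on simulated arrays, in which loess on all spots left a positive ratio at bright unchanged probes.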

Additional observations from a re-analysis of the deposited data

How the results depend on the processing

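The number of arrays and signal over background limit every value. In limma 0 probes were called higher and 1 lower in KO. Both counts moved with an offset of 16 (2 higher, 19 lower), centring on the median of tested probes without loess (1227 and 1814), robust, trended moderation (32 and 48), array weights (26 and 12) and an adjusted p of 0.10 (53 and 37). Calls lower were 3 with no background subtraction, 5483 with arrays centred on the median of all spots without loess, and 0 with the processed signals (937 at an unadjusted p under 0.05), with no filter on dim probes (3494), with both channels well above background (1051) and with the 6 channels as separate samples and no replicate block (295). Leaving out an array gave 0 to 1 higher and 0 to 9 lower, with 0 lower without array 3 (1488 at an unadjusted p under 0.05), 9 without array 1 and 5 without array 2. NR_003278 was among the probes called in 4 of 14 settings (without array 1, with an offset of 16 and in both settings without loess). The brighter probe of NR_046233, Rnu1b6 and Neat1 were called in both settings without loess, and Malat1 in that centred on all spots. Nothing is read from these calls, since this comparison chose the RNAs. Of the 8391 tested probes, limma called 5483 lower when centred on all spots, and 1227 higher and 1814 lower when centred on tested probes. The 14 settings do not include robust, trended moderation or the adjusted p of 0.10.

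Centred on the median of all spots without loess, the ratios were -1.89 for NR_003278, -1.47 and -1.34 for the probes of NR_046233, -1.22 for Rnu1b6, -0.616 for Malat1 and -0.990 for Neat1. Centred on the tested probes they were -1.03 and -0.821 for NR_046233, -0.177 for Malat1 and -0.551 for Neat1. Malat1 was 0.191 with the processed signals. Other settings moved these ratios by less than the SD between arrays, though the sign turned in some, as for Malat1 at 0.022 without array 2 and Neat1 at -0.040 without array 3. The causes were not tested. No paired analysis beyond the array itself was possible because each array holds 1 KO and 1 WT sample and its ratio already pairs them.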
